A study of Mus musculus with 4 samples.

Results

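Fibroblasts and the extracellular matrix genes they express were examined in cultures of mouse colonic epithelial cells, as a measure of the stroma carried along with the epithelium. The set holds 35 genes chosen by symbol, all 35 of which were listed among the 17604 genes of the deposited expression table. Epithelial cells were isolated from the colon of C57BL/6 mice that were wild type or Stat4-/-, the latter lacking a transcription factor that cytokine receptors activate. They were plated on Matrigel, a basement membrane extract, given 24 h to attach, and cultured either with no addition or with leukemia inhibitory factor (LIF) at 20 ng/ml. LIF is a secreted protein that signals through gp130, as interleukin-6 does. Genotype and treatment were crossed into 4 groups of 1 library each, and the labels name no duration of LIF exposure, no age and no sex. The design text speaks of duplicates, but whether a column pools them is not stated. Values are FPKM, the density of sequenced fragments per transcript length and library size, so levels can be compared between genes. Where 4 values of a gene follow each other, the wild-type culture without and then with LIF comes before the Stat4-/- culture without and then with LIF.

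The extracellular matrix of the gut wall is laid down largely by fibroblasts. They secrete fibrillar collagens, which assemble into tensile fibres, and small leucine-rich proteoglycans, which bind the fibres and set their spacing. Type IV collagen forms the sheet of the basement membrane beneath epithelium and around vessels, and beaded filaments of type VI collagen link that sheet to the fibres. Many of these genes are not restricted to fibroblasts: endothelium, pericytes and smooth muscle also make Col4a1, Sparc and Igfbp7, leukocytes contain vimentin, and epithelial cells in culture can make fibronectin.

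Stat4 was at 19.7 and 20.5 FPKM in the wild-type libraries, without and with LIF, and at 2.01 and 2.98 FPKM in the Stat4-/- libraries. The Y-linked gene Ddx3y was at 5.86 and 6.34 FPKM in the wild-type libraries and at 0.05 and 0.07 FPKM in the Stat4-/- libraries, so what goes with genotype and what goes with sex cannot be told apart. Depth, estimated from the steps of low FPKM values, ran from 22.0 to 27.7 M fragments (M for mega) per library. With 1 library per group, differences between single libraries have no replicate check. A limma fit with genotype and treatment as additive terms gave the tests, at a Benjamini-Hochberg adjusted p of 0.05 over the 12274 genes whose mean reached 1 FPKM. This fit has 1 residual degree of freedom, the difference of the LIF effects between genotypes, so any such difference counts as error. The labels do not say whether the libraries of a genotype came from separate isolations, so its p-values may measure technical spread only.

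Epithelial expression was high, with Krt8, an epithelial keratin, at 2972 to 3173 FPKM, which does not measure the share of epithelial cells. Fibroblast genes were detected in every library all the same. Pdgfra, the receptor that marks gut fibroblasts, was at 43.5, 44.2, 42.1 and 43.4 FPKM. The collagen-binding proteoglycan gene Dcn was at 127, 143, 136 and 140 FPKM in the same order, and none of the 35 genes was at 0 in any library. The genes summed to 2117, 2076, 2016 and 1999 FPKM, which was 0.505, 0.484, 0.472 and 0.459% of all FPKM in each column. In these bulk cultures, the number of stromal cells, the RNA per stromal cell and expression of these genes by other cells cannot be told apart.

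Levels ran from Col14a1, a collagen found on fibril surfaces, at 0.45 to 0.54 FPKM, up to Vim, the intermediate filament of mesenchymal cells, at 316 to 380 FPKM. After Vim, the mean levels were highest for Sparc (249 FPKM), Col4a1 (201), Igfbp7 (182), Dcn (137), Col4a2 (131), Igfbp5 (118) and Gsn (113). The fibrillar collagen genes Col1a1 (mean 22.9 FPKM) and Col1a2 (13.9), typical of fibroblasts, stood well below them. The order of the genes was much the same in all libraries, with Spearman's rho over the 35 genes between 0.977 and 0.993 for the 6 pairs of libraries, a description over genes that are not independent. Col14a1 was the 1 gene below the mean of 1 FPKM and was not tested, which left 34.

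**Figure D1:**
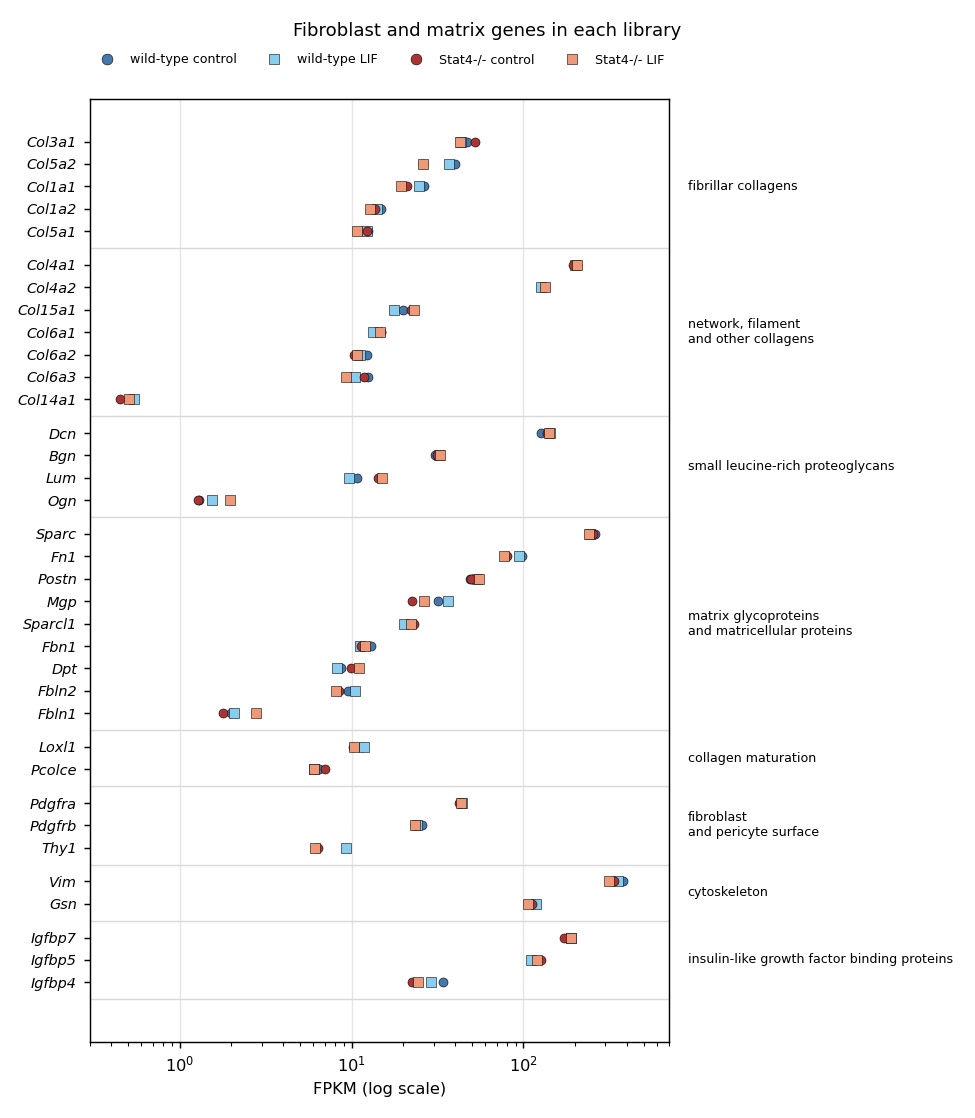
FPKM (log scale) of the 35 genes in each of the 4 libraries, grouped by role, with blue for wild type, red for Stat4-/-, circles for control and squares for LIF. The points of most genes nearly coincide, while those of Col5a2, Lum, Mgp, Igfbp4, Col1a1 and Fn1 separate by genotype. Single points stand apart for Thy1 (wild-type LIF) and for Fbln1 and Ogn (Stat4-/- LIF).

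Between genotypes the gene set as a whole stayed near its wild-type level, while single genes moved in opposite directions. Col5a2, Mgp, Igfbp4, Col1a1, Fn1 and Vim fell in Stat4-/-, and Lum and Col15a1 rose. That is 6 of 34 lower against 7.68% of all tested genes, and 2 of 34 higher against 7.81% of all tested genes. The genotype effect, the fitted difference Stat4-/- minus wild type on the log2(FPKM + 1) scale, had a median of -0.03 over the 34 genes and -0.01 over all tested genes. It ranged from -0.54 for Col5a2 to 0.48 for Lum. The values of the genotypes did not overlap in 19 of 34 genes, which was the case for 53.3% of all tested genes. In the fit without a mean-variance trend, 0 of the 34 genes passed, with 9 at an unadjusted p under 0.05 against 12 with the trend. Over all 12274 tested genes, 2931 were at an unadjusted limma p under 0.05 without the trend and 3610 with it. With the columns centred on epithelial genes 4 genes rose, Lum, Col15a1, Dpt and Igfbp5, and 5 fell, and the share of higher calls among all genes called went from 50.4 to 75.2%.

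**Figure D2:**
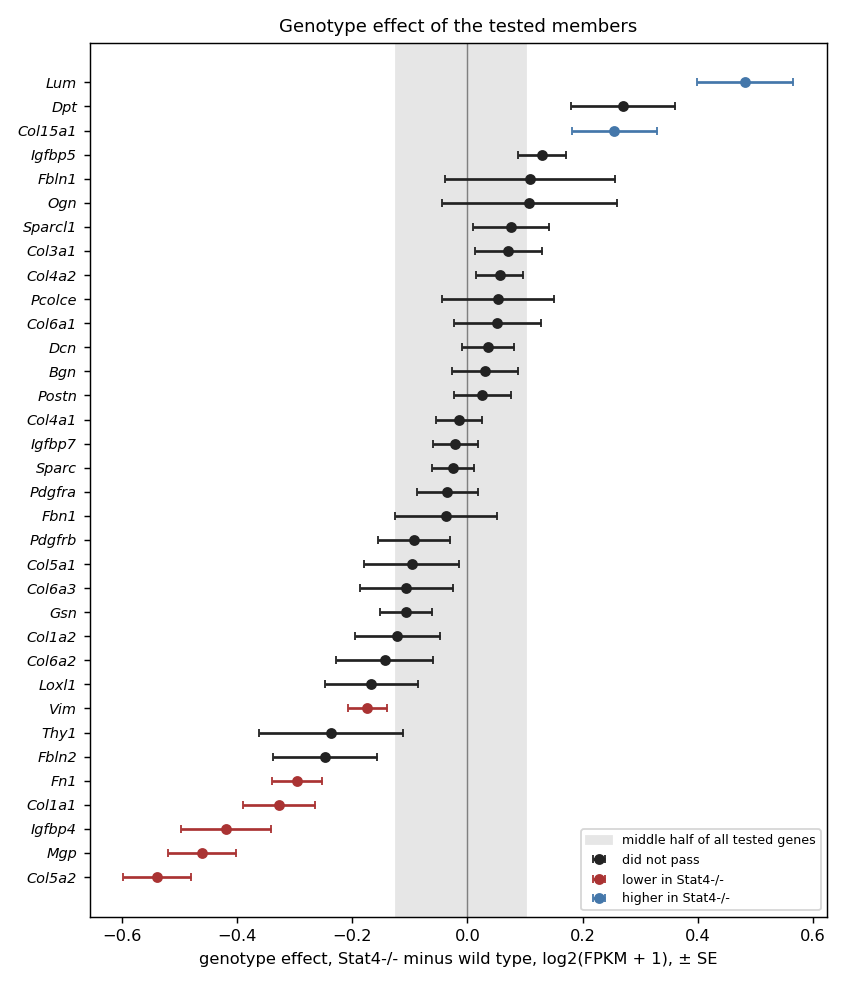
Genotype effect of each of the 34 tested genes, Stat4-/- minus wild type on the log2(FPKM + 1) scale, with its limma standard error; red marks genes that fell, blue genes that rose and black those that did not pass. The grey band spans the quartiles of all tested genes, from -0.12 to 0.10, and every gene that passed lies outside it, with Col5a2 at -0.54 and Lum at 0.48 as the ends.

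Among the fibrillar collagens, 2 of 5 fell in Stat4-/- and the other three did not pass. Col5a2, a chain of the minor type V collagen that starts fibrils, was at 39.8 and 36.8 FPKM in the wild-type cultures and at 26.1 and 26.0 FPKM in the Stat4-/- cultures. Both Stat4-/- libraries lay below both wild-type libraries, at 0.656 times the wild-type level without LIF and 0.705 times with it. The gene fell by 0.54 on the log2 scale (SE 0.059, adjusted p = 0.000125). Col1a1, the major chain of type I collagen, was at 26.6, 24.6, 21.1 and 19.4 FPKM in the same order. Again the genotypes did not overlap, and it fell by 0.33 (SE 0.063, adjusted p = 0.0051).

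The partner chains moved less. Col1a2, which joins Col1a1 in the type I trimer, was at 14.8, 14.2, 13.6 and 12.9 FPKM (genotype effect -0.12, adjusted p = 0.311). The ratio of Col1a1 to Col1a2 FPKM was 1.79 and 1.74 in the wild-type libraries and 1.54 and 1.51 in the Stat4-/- libraries. Col5a1, the partner of Col5a2, was at 12.4, 12.4, 12.3 and 10.8 FPKM (genotype effect -0.10, adjusted p = 0.482). The ratio of Col5a2 to Col5a1 was 3.20 and 2.98 in wild type and 2.12 and 2.41 in Stat4-/-. Col3a1, which forms the pliable type III fibres, was at 46.7, 43.1, 52.2 and 42.6 FPKM and overlapped between genotypes (genotype effect 0.07, adjusted p = 0.464).

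Col5a2 and Col3a1 are neighbours on chromosome 1 in mm10, at 45374321 to 45503282 on the minus strand and 45311538 to 45349706 on the plus strand. They lie 6.48 and 6.64 Mb from Stat4, which is at 51987148 to 52107189. The ratio of Col3a1 to Col5a2 was 1.17 in both wild-type libraries, and in Stat4-/- it was 1.998 without LIF and 1.64 with LIF. Of the 72 tested genes within 10 Mb of Stat4, 8 were called higher and 7 lower for genotype, or 20.8% against 15.5% of the remaining tested genes. Fn1, Igfbp5, Col6a3 and Dpt are on the same chromosome at 19.48, 20.75, 38.66 and 112.69 Mb from Stat4. Any part of flanking sequence at the targeted locus in these differences was not tested.

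The basement membrane and filament collagens stayed level except for Col15a1. Col4a1, a chain of the type IV network, was at 204, 201, 195 and 205 FPKM. Its partner Col4a2 was at 130, 127, 134 and 133 FPKM. These chain genes lie head to head on chromosome 8, with annotated starts at 11312826 and 11312805, and the ratio of Col4a1 to Col4a2 was 1.56, 1.59, 1.46 and 1.54. Neither passed (genotype effects -0.01 and 0.06, adjusted p = 0.855 and 0.404).

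Col15a1, a collagen of the zone next to basement membranes, was at 19.9, 17.7, 22.0 and 23.2 FPKM, with both Stat4-/- libraries above both wild-type libraries. It rose by 0.26 (SE 0.074, adjusted p = 0.0393), and this call held in 2 of 7 alternative settings, with an adjusted p of up to 0.187. The type VI chains Col6a1, Col6a2 and Col6a3 were at 13.4 to 14.9, 10.3 to 12.4 and 9.32 to 12.4 FPKM. Their genotype effects were 0.05, -0.14 and -0.11, and none passed. Col14a1 was at 0.51, 0.54, 0.45 and 0.51 FPKM, or about 67 to 91 fragments per library, too few for a difference to show: the Stat4-/- to wild-type ratio without LIF had a 95% counting interval of 0.631 to 1.24.

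Of the 4 small leucine-rich proteoglycans, Lum rose and the others did not pass. Lum encodes lumican, which regulates collagen fibril diameter. It was at 10.79 and 9.62 FPKM in the wild-type cultures and at 14.27 and 15 FPKM in the Stat4-/- cultures. The Stat4-/- libraries were higher in both treatments, 1.32-fold without LIF and 1.56-fold with LIF, and the gene rose by 0.48 (SE 0.084, adjusted p = 0.00269). Dcn, which encodes decorin and lies next to Lum on chromosome 10, had a genotype effect of 0.04 (adjusted p = 0.65). The ratio of Dcn to Lum was 11.8 and 14.9 in wild type and 9.56 and 9.36 in Stat4-/-. Bgn, which encodes biglycan, was at 30.7, 32.1, 31.6 and 32.6 FPKM, and Ogn, which encodes osteoglycin, at 1.30, 1.54, 1.28 and 1.97 FPKM.

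Among the 9 glycoproteins and matricellular proteins, Fn1 and Mgp fell. Fn1 encodes fibronectin, the adhesive glycoprotein on which cells and collagen assemble. It was at 98.5, 94.4, 79.8 and 77.0 FPKM. Both Stat4-/- libraries were lower, and it fell by 0.30 (SE 0.044, adjusted p = 0.000993). Mgp, the matrix Gla protein that inhibits calcification, was at 31.8, 36.4, 22.6 and 26.4 FPKM. Its Stat4-/- level was 0.712 times the wild-type level without LIF and 0.725 times with it, and it fell by 0.46 (SE 0.059, adjusted p = 0.000346).

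The other seven did not pass. Sparc, a collagen-binding matricellular protein, was at 242 to 260 FPKM. Its relative Sparcl1 was at 20.2 to 23.2 FPKM. Postn, which encodes periostin, a product of activated fibroblasts, was at 49.1, 53.9, 49.6 and 55.3 FPKM. Their genotype effects lay between -0.03 and 0.08. Dpt, the small protein dermatopontin that binds decorin, was at 8.74, 8.29, 9.91 and 11.1 FPKM and missed the threshold (genotype effect 0.27, SE 0.090, adjusted p = 0.0664), although its genotypes did not overlap. Of the microfibril and elastic fibre proteins, Fbln2 was at 9.54, 10.5, 8.48 and 8.10 FPKM (genotype effect -0.25, adjusted p = 0.0898), Fbn1 at 11.2 to 12.9 FPKM and Fbln1 at 1.80 to 2.80 FPKM.

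The enzymes of collagen maturation and the surface receptors did not pass. Loxl1, which crosslinks elastin and collagen, was at 10.2 to 11.8 FPKM, and Pcolce, an enhancer of procollagen cleavage, at 6.06 to 7 FPKM. Pdgfra and Pdgfrb, the receptors for platelet-derived growth factors on fibroblasts and pericytes, had genotype effects of -0.03 and -0.09 (adjusted p = 0.711 and 0.374), with Pdgfrb at 25.9, 24.1, 23.5 and 23.3 FPKM. Thy1, a surface protein of fibroblasts that T cells also carry, was at 6.22, 9.23, 6.42 and 6.17 FPKM. Its wild-type LIF library stood alone, and the other three lay at 6.17 to 6.42 FPKM.

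Vim fell and Gsn did not pass. Vim was at 380, 355, 335 and 316 FPKM, with both Stat4-/- libraries below both wild-type libraries. It fell by 0.17 (SE 0.034, adjusted p = 0.00552), a call that held in 4 of 7 alternative settings, with an adjusted p of up to 0.213. Gsn, which encodes the actin-severing protein gelsolin, was at 116, 119, 112 and 106 FPKM (genotype effect -0.11, adjusted p = 0.139).

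Among the insulin-like growth factor binding proteins, which carry these factors in the matrix, Igfbp4 fell. It was at 34.2 and 29.1 FPKM in the wild-type cultures and at 22.5 and 24.2 FPKM in the Stat4-/- cultures. The Stat4-/- level was 0.657 times the wild-type level without LIF and 0.833 times with it, and the gene fell by 0.42 (SE 0.078, adjusted p = 0.00392), a call held in 5 of 7 alternative settings. Igfbp5 was at 115, 110, 127 and 119 FPKM, with both Stat4-/- libraries higher, and missed the threshold (genotype effect 0.13, adjusted p = 0.06). Igfbp7 was at 179, 189, 173 and 190 FPKM. It overlaps Polr2b on the opposite strand, as Fn1 overlaps Apol7d, Col15a1 Gm12426 and Ogn Cenpp, and the labels do not say that reads were counted by strand. These overlaps are of whole gene spans, and how far exons overlap was not examined. Where exons do overlap, reads could not be told apart without strand.

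As single differences, 2 of 34 genes were at least 1.5-fold apart between the control libraries, Col5a2 and Igfbp4, both lower in Stat4-/-, against 3.21% of all tested genes. Between the LIF libraries this was 1 of 34, Lum, against 3.8% of all tested genes. These folds are on the log2(FPKM + 1) scale, which understates the change of low genes. Counting error was small beside the larger differences: for Col5a2 the 95% counting interval of the Stat4-/- to wild-type ratio was 0.631 to 0.683 without LIF, and for Lum 1.40 to 1.74 with LIF. Such intervals rest on the estimated depths and cover counting error only.

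Start-site sequences of the set were searched for the STAT binding motif TTCNNNGAA, since Stat4 is the gene removed, and for the TATA box TATAAA, in the 250 bases before each start on both strands. RefSeq promoter entries on GRCm38.p6 matched 24 of the 35 genes, with 29 promoters. Col1a1, Col5a2, Lum, Fn1 and Mgp, which are 5 of the 8 genes called for genotype, were not among them and were not searched. The STAT motif, a palindrome, was in 1 of the 29, that of Dpt, against 7.02% of all 32851 promoters, and the TATA box in 5, against 12.4%. The stretches printed are those of Dpt, for its STAT motif, and of Igfbp4 and Postn, whose TATA box begins 28 and 26 bases before the start, with the motif in capitals. Igfbp4 fell in Stat4-/- whereas Postn and Dpt did not pass. A match describes letters and shows no binding.
Dpt, chr1:164796490-164796588, plus strand: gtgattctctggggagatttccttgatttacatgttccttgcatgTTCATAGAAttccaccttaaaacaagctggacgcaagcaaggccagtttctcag
Igfbp4, chr11:99041171-99041243, plus strand: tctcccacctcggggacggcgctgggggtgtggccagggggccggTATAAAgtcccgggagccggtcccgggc
Postn, chr3:54361036-54361106, plus strand: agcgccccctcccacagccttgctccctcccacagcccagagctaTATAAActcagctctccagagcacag

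LIF left the fibroblast and matrix genes close to their control levels in both genotypes. By limma 0 of 34 genes passed for the LIF effect common to the genotypes, against 0.701% of all tested genes called higher and 0.122% called lower. At an unadjusted p under 0.05 in this fit there were 7 of 34, 4 higher and 3 lower, against 1537 of all 12274 tested genes. The LIF effect on the log2(FPKM + 1) scale had a median of -0.04 over the 34 genes, against -0.001 over all tested genes. Col3a1 and Col6a3 had the lowest values, -0.20 and -0.28 (adjusted p = 0.148 and 0.161). Mgp was higher in the LIF library of each genotype, by 0.19 and 0.21, but did not pass (adjusted p = 0.157). The LIF libraries did not overlap the control libraries in 12 of 34 genes, against 27.0% of all tested genes.

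On the log2(FPKM + 1) scale, 0 of 34 genes were 1.5-fold apart with LIF in wild type, against 0.872% of all tested genes. In Stat4-/- this was 0 of 34, against 0.994%, each between single libraries. The median difference was -0.06 in wild type and -0.01 in Stat4-/-. By ratio of FPKM, Thy1 differed most in wild type, at 1.48-fold higher with LIF (95% counting interval 1.26 to 1.75), against 0.961-fold in Stat4-/-. In Stat4-/- the highest were Fbln1, from 1.80 to 2.80 FPKM, and Ogn, from 1.28 to 1.97 FPKM. Their FPKM ratios were past 1.5-fold, at 1.56 and 1.54, with counting intervals of 1.27 to 1.91 and 1.16 to 2.08. With a pseudocount of 0.1, which compresses low genes less, 1 gene, Fbln1, passed 1.5-fold in Stat4-/-. Whether the LIF effect differs between genotypes could not be tested, as that contrast leaves no residual degrees of freedom. As values on the log2(FPKM + 1) scale, 0 of 34 genes had LIF effects 1.5-fold apart, against 2.69% of all tested genes. Thy1 came nearest on that scale, at -0.552, though its plain FPKM ratios of 1.48 and 0.961 are past 1.5-fold apart.

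**Figure D3:**
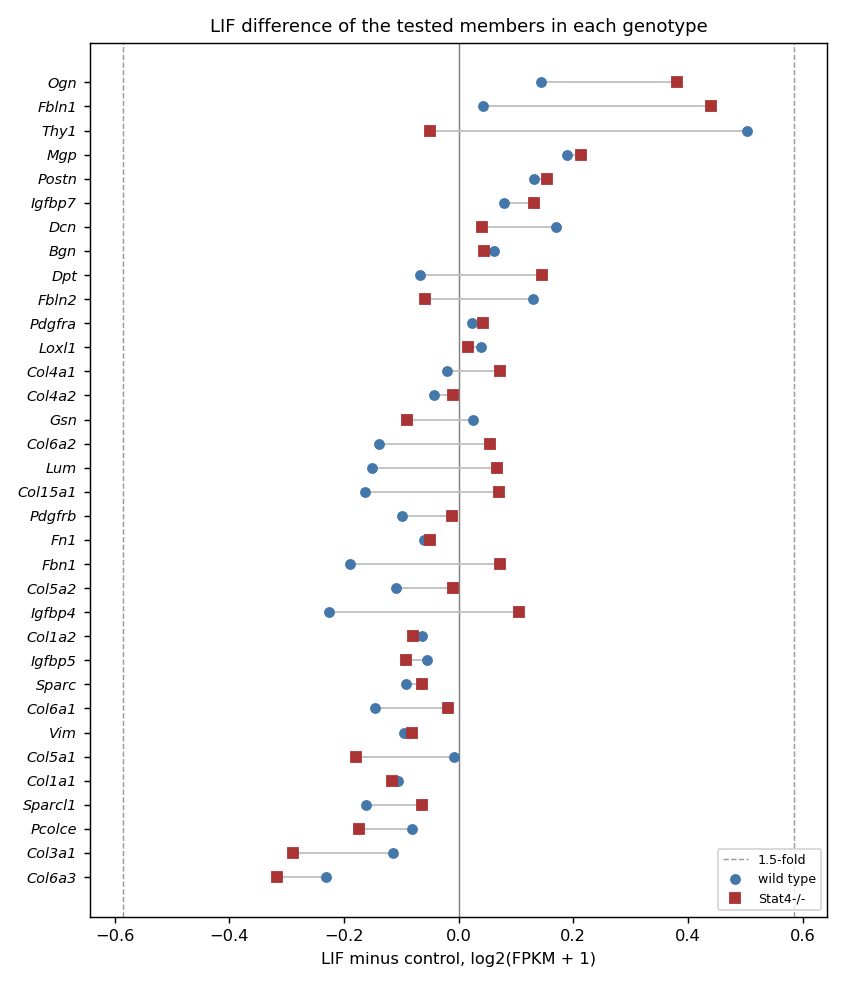
LIF minus control on the log2(FPKM + 1) scale for the 34 tested genes, in wild type (blue circles) and Stat4-/- (red squares), 1 library per group; dashed lines mark 1.5-fold. All points lie inside the lines, and Thy1 in wild type (0.50) and Fbln1 in Stat4-/- (0.44) lie farthest to the right.

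Most genes of other matrix lists did not pass for genotype, and the counts of each list stand against the same 7.81% higher and 7.68% lower of all tested genes. Of 12 tested other collagens, Col13a1, a membrane-bound collagen, rose from 10.2 to 15.4 FPKM without LIF and from 10.2 to 17.7 with LIF (effect 0.65, SE 0.081, adjusted p = 0.000275), and Col8a1 fell by 0.42 (adjusted p = 0.045). Col18a1 and Col12a1, the most abundant of the list, were at 52.5 to 58.5 and 20.3 to 22.2 FPKM and did not pass. Of 26 genes of collagen synthesis and crosslinking 1 rose, the collagen chaperone Serpinh1, at 237, 246, 277 and 286 FPKM (effect 0.22, SE 0.036, adjusted p = 0.00183). P4hb, Ppib and Loxl2 did not pass.

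Of 13 laminin, nidogen and perlecan genes, Lama3 and Lamb3, chains of the epithelial laminin, fell by 0.27 and 0.23 (adjusted p = 0.00419 and 0.0102), and Lamb1 did not pass. Of 12 elastic fibre genes Ltbp2 fell by 0.37 (adjusted p = 0.0341). Of 25 other proteoglycans and glycoproteins 5 fell and 0 rose. They were Ctgf, a matricellular protein downstream of TGF-beta and YAP (138, 131, 92.2 and 102 FPKM, adjusted p = 0.00015), Thbs2, Smoc1, Tgfbi and Cyr61, with effects of -0.47, -0.48, -0.45, -0.28 and -0.19 in that order. Tnc, the most abundant of them, did not pass at 315 to 337 FPKM.

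Of 36 tested genes that mark fibroblast subsets or their regulators, 5 rose and 4 fell, against 7.81% higher and 7.68% lower of all tested genes. The cytokine gene Il6 was at 26.4, 29.8, 48.0 and 55.1 FPKM and rose by 0.85 (SE 0.055, adjusted p = 2.01e-06). Il11, a related cytokine, rose by 0.50 (adjusted p = 6.3e-06), C3, a complement component, by 0.67 (adjusted p = 0.000608), Il33 by 0.59 and Grem1, a BMP antagonist of crypt-base fibroblasts, by 0.39. Bmp5, a product of fibroblasts near the surface epithelium, fell by 0.52 (adjusted p = 0.0012). Lrp1, an endocytic receptor, and the metalloproteinase inhibitors Timp2 and Timp3 also fell. After Il11, the most abundant of the list were Mmp2, Mmp14 and Adamdec1, which did not pass (adjusted p = 0.132, 0.75 and 0.144). Without a mean-variance trend, Il6, C3 and Col13a1 still passed, and the other calls named from these matrix and subset lists did not. Epithelial cells and leukocytes can express several of these genes as well.

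Markers of smooth muscle and endothelium were higher in sum in Stat4-/-, while the fibroblast lists were level or went either way. Counts of genes that rose or fell in each list stand against 7.81% higher and 7.68% lower of all tested genes. The 8 fibroblast markers within the set summed to 302 and 312 FPKM in the wild-type libraries and 310 and 303 FPKM in the Stat4-/- libraries, with 1 risen and 1 fallen. Relative to the wild-type culture without LIF, the fibrillar collagen sum in Stat4-/- was 0.893 without and 0.795 with LIF. That of the small leucine-rich proteoglycans was 1.08 and 1.12. In wild type with LIF these sums stood at 0.934 and 1.10, so the Stat4-/- values with LIF hold any LIF difference as well. Of 12 smooth muscle genes 6 rose and 1 fell in Stat4-/-, and their summed level was 310 and 294 FPKM in the wild-type libraries and 405 and 365 FPKM in the Stat4-/- libraries. Cnn1, which encodes calponin, was at 10.5, 13.1, 31.3 and 26.5 FPKM (effect 1.23, SE 0.102, adjusted p = 1.57e-05), and without a mean-variance trend it and Myl9 still passed, while Acta2, actin of smooth muscle and myofibroblasts, fell by 0.30 (adjusted p = 0.00481). Of 15 endothelial genes 7 rose and 0 fell, with sums of 538 and 535 FPKM in the wild-type libraries and 603 and 642 FPKM in the Stat4-/- libraries, and without a mean-variance trend 0 of them passed. Of 7 pericyte genes 1 rose, Rgs5, of 14 macrophage genes 1 rose and 2 fell, and of 6 enteric glia genes 2 fell. For mesothelium 1 of 8 markers was tested, Msln, which fell from a wild-type level of 7 and 5.72 FPKM to 4.99 and 2.65. Of 18 general epithelial genes 2 rose and 7 fell, and their sum went from 12469 and 12290 to 12025 and 11431 FPKM. Without a mean-variance trend none of the 18 epithelial genes passed, nor did Acta2 or Msln. The part of these cell types in the genotype differences of the matrix genes was not tested.

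**Figure D4:**
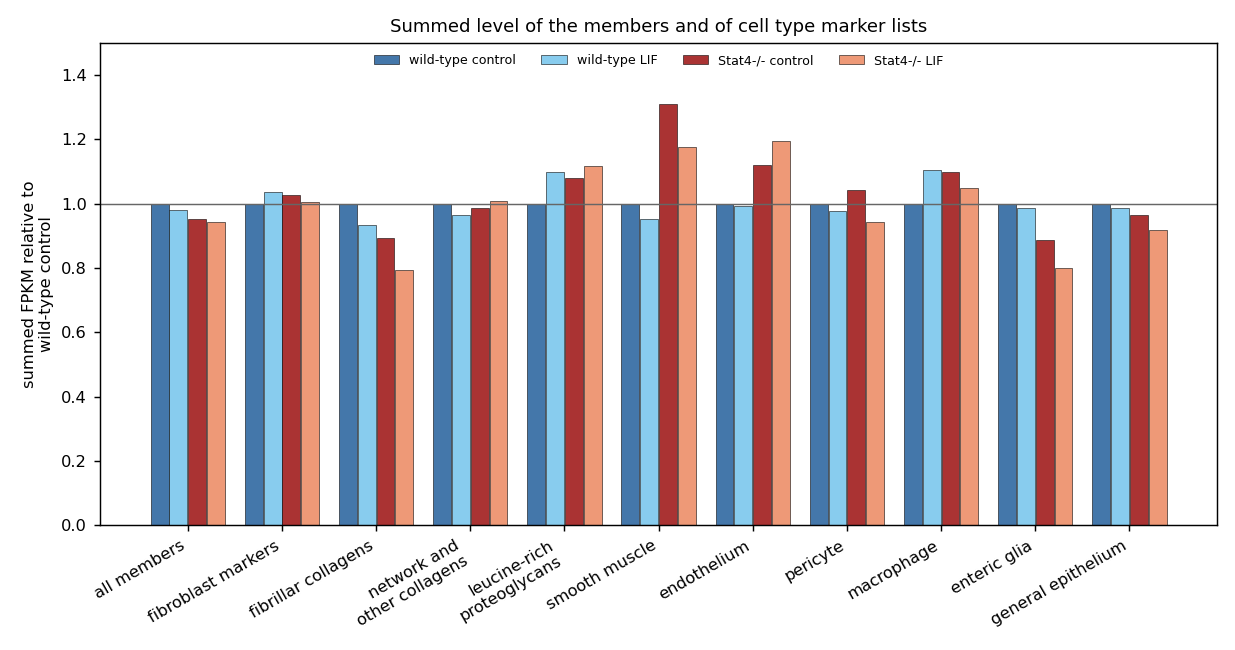
Summed FPKM of the 35 genes, of the fibroblast markers and 3 roles among them, and of 6 lists of markers of other cell types in each library, relative to wild-type control (bars start at 0, 1 library per group, no error). In Stat4-/- the smooth muscle sum stood at 1.31 and 1.18 and the endothelial sum at 1.12 and 1.19, while the fibroblast marker sum stood at 1.03 and 1.00, fibrillar collagens at 0.893 and 0.795, network and other collagens at 0.986 and 1.01, proteoglycans at 1.08 and 1.12 and the whole set at 0.952 and 0.944. In wild type with LIF these sums stood at 0.951, 0.994, 1.035, 0.934, 0.966, 1.097 and 0.981 in the same order.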

How the data were processed

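RNA from 4 cultures was sequenced, 1 library per group, from TruSeq RNA libraries of total RNA per the labels. The submitters' processing notes name HISAT, Bowtie2 and the build mm10, without versions; for the expression program and its annotation, the sources used here give nothing. Per the file headers, the authors deposited expression as FPKM; 0 value columns were left unused. Differences were taken on log2(FPKM + 1). Limma 3.58.1 (R 4.3.3) with additive genotype and treatment terms and a mean-variance trend tested genes whose mean reached 1 FPKM, two-sided; its prior degrees of freedom were 10.2. Tested on simulated data for the genotype effect with 12274 genes, a change of 0.3 on the log2 scale was recovered in 46% of genes. A change of 0.6 was recovered in 85%, and 5 of 136 calls were false. Simulated noise was normal, independent between libraries and of the same size in genes of like level, as the fit assumes. The simulation therefore does not measure false calls where libraries share an isolation or genes depart from the trend. Depth came from low FPKM steps in genes with 1 transcript of 300 to 1500 bases, and 55.4 to 59.8% of these values came out whole to within 0.15 fragments, so depths are approximate. Positions and transcript lengths came from GENCODE M21 (mm10). At most 5.78% of any member's 31-base words occurred in another gene. The genes, lists and tests were chosen with earlier results of these data known. All members were named, with the 4 most abundant and up to 6 called genes of each other list considered for naming; markers of other cell types are named as examples, chosen after their values were seen. Alternatives changed the pseudocount, the filter, the scaling or the mean-variance trend.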

Additional observations from a re-analysis of the deposited data

Results flagged for a closer look

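Igfbp4 had LIF effects of opposite sign in the genotypes. LIF minus control was -0.23 in wild type and 0.11 in Stat4-/- on the log2(FPKM + 1) scale, a difference of 0.33. With 1 library per group this difference was not tested. Opposite signs occurred in 10 of 34 tested genes, and Igfbp4 was the 1 gene with at least 0.1 in both genotypes, a limit set after the values were seen.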

How the results depend on the processing

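The count of genes risen in Stat4-/-, 2 as reported, was 1 with a pseudocount of 0.1, with no filter on low values, with median-of-ratios scaling and with upper-quartile scaling, 4 when centred on epithelial genes and 0 without a mean-variance trend. The count of genes fallen, 6 as reported, was 0 without that trend, where limma's prior degrees of freedom were 3.24 and not 10.2, and 4 to 6 in the other alternatives. The count past 1.5-fold between control libraries, 2 as reported, was 0 with median-of-ratios scaling and when centred on epithelial genes. With a pseudocount of 0.1 it was 1 for LIF in Stat4-/- and 1 for the difference of the LIF effects, each 0 as reported. Centred on epithelial genes, effects that did not pass changed sign: genotype effects of Col4a1 (to 0.063), Fbn1 (0.034), Sparc (0.051), Pdgfra (0.04) and Igfbp7 (0.056), and the LIF effect of Col4a2 (0.002). With median-of-ratios scaling the genotype effect of Col4a1 went to 0.002. Scaling shifts all genes of a library together. Centring on epithelial genes divided the columns, in the order used above, by 1.032, 1.025, 0.9901 and 0.96. The median genotype effect of all tested genes went from -0.0104 to 0.0582 with it, and to 0.0045 with median-of-ratios scaling. Of the 18 genes used for centring, 2 were called higher and 7 lower in Stat4-/-. The 8 called genes kept their direction with the other pseudocount and the 3 other scalings; the remaining alternatives leave the effects as they are. Medians over the set moved by under 0.1 with each alternative that gave one, with the genotype medians at 0.013 without LIF and 0.071 with LIF when centred on epithelial genes. Over all genes, 959 higher and 943 lower genotype calls as reported became 407 and 357 with no filter, 123 and 128 without the trend, and 1495 and 492 when centred on epithelial genes. For LIF, 86 higher and 15 lower calls became 0 and 1 both with no filter and without the trend. The median of all genes shifted by under 0.1 in each scaling run. No paired analysis was possible because the groups share only 1 replicate number; the additive fit compares LIF with control within each genotype. Depth limits the values of Col14a1, Ogn and Fbln1, which rest on 67 to 284 fragments per library.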
